A study of Mus musculus with 98 samples.

Results

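Platelet and megakaryocyte genes were followed through blood leukocytes and spleen of mice in 3 models of systemic inflammation. The 10 genes, out of 12393 that the platform's gene table names by a single symbol, are Pf4, Ppbp, Itga2b, Itgb3, Gp9, Gp5, Gp1bb, Treml1, Clec1b and F5. They were chosen by symbol, and every probe set that the table maps to one of them was taken. That gave 12 probe sets, with a pair each for Gp1bb (1422977_at and 1456427_at) and F5 (1418907_at and 1449269_at). One more probe set, 1452357_at, is shared by Septin5 and Gp1bb. It lay under the filter on low values in every comparison, was at the lowest deposited value on 10 LPS blood arrays, and was not tested.

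RNA was measured on 98 Affymetrix arrays, 64 of blood and 34 of spleen, after burns, trauma-hemorrhage or an infusion of the bacterial endotoxin lipopolysaccharide (LPS). Array titles hold a c or an x, whose meaning no label gives, and groups are therefore compared by that code. They also hold a letter, which for blood the labels read as E for the injury or infusion and A for sham. Burn blood had 11 c and 9 x arrays (11 E, 9 A), LPS blood 12 c and 10 x (11 E, 11 A), and trauma-hemorrhage blood 11 c and 11 x (12 E, 10 A). Every spleen array is an E array: 5 c and 6 x in the burn model, 6 of each in the LPS model and 6 c and 5 x in trauma-hemorrhage. Titles of LPS spleen also bear a version mark. Strain, sex, age, doses and times are not given in the sources used here. Whether a group's arrays stem from different animals is not stated, and p-values thus rest on the spread among these samples alone, which may be technical. The labels call the blood samples white blood cells, and how many platelets they held is not given. In such bulk samples fewer cells of a type and less RNA per cell cannot be told apart.

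Platelets are cell fragments shed by megakaryocytes, which sit in the bone marrow and, in mice, also in the spleen. They have no nucleus, and the RNA they carry comes from the megakaryocyte that shed them. They stick to damaged vessels through surface glycoproteins, release chemokines from their granules and provide a surface on which clotting factors assemble. Transcription of these genes in megakaryocytes is driven by factors of the GATA and ETS families.

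Promoter letters of the members are shown because the genes are known to share these regulators. RefSeq (build GRCm38.p6) gave the 250 bases before the gene start for 9 of the 10 genes. Itgb3 had no entry and was not searched. The GATA motif was searched as AGATAA and, with its ends changed, as TGATAA, then AGATAG and last TGATAG, on either strand. This motif was present in 3 of the 9, those of Gp5, Gp1bb and Clec1b, and in 26.5% of all 32851 promoters in the table. An ETS motif (AGGAAG or CGGAAG, either strand) was present in 6 of the 9, against 39.2% of all promoters, and both were present in 2, Gp5 and Gp1bb, against 9.21%. The promoters with a GATA motif are printed with that motif in capitals, read along the strand of the gene, so that a motif on the other strand appears as its reverse complement. They are Gp5 at chr16:30310782-30311031 (minus strand), Gp1bb at chr16:18622404-18622653 (minus strand) and Clec1b at chr6:129397047-129397296 (plus strand). The motifs begin 115, 93 and 77 bases before the start of Gp5, 22 before that of Gp1bb and 189 before that of Clec1b.
Gp5: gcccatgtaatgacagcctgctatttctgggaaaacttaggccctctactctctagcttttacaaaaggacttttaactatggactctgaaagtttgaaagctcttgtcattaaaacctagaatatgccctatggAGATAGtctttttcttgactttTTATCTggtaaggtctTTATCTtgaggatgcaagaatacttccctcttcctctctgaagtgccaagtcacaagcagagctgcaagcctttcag
Gp1bb: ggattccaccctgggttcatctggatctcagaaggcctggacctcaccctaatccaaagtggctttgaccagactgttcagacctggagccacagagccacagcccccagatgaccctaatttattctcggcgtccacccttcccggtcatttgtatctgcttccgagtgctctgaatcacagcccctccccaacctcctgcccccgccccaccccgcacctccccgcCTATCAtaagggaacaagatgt
Clec1b: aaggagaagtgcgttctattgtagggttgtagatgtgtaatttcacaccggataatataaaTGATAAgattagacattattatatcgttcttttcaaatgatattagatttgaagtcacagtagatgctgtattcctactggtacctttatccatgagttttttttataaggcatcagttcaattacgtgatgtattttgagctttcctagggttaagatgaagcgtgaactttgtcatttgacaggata
A match describes these letters and is no evidence of a bound factor.

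The deposited values are linear intensities. They were taken as log2(value + 16) and quantile normalized within a tissue, and differences are on that log2 scale, with their standard error (SE). The 6 array sets, one for each model and tissue, had different lowest values, from 9.68 to 32.5, so levels were compared only within a set, and never between probe sets. None of the 12 probe sets was at the lowest value on any array. Differences were tested with limma over 15838 probe sets in each comparison, with Benjamini-Hochberg adjustment over all of them, and a gene is said to have risen or fallen only at an adjusted p under 0.05. A pair of burn blood arrays, replicates 4 and 5 of code c and letter E, stood apart from the other 9 c arrays: the summed level of 14 neutrophil genes was 60800 and 55300 in them, against 7760 to 14800, and that of 9 B cell genes 5140 and 5980, against 9650 to 13200. One array property also bears on the blood results. The log2 ratio of the 3' to the 5' beta-actin controls, which reflects RNA integrity, was 0.938 to 1.27 in x and 1.49 to 1.65 in c arrays of LPS blood, and 0.97 to 1.65 in x and 1.79 to 2.28 in c arrays of trauma-hemorrhage blood. Those ranges do not overlap, so in both sets the ratio and the code cannot be told apart. In burn blood (1.39 to 1.65 in x, 0.967 to 1.74 in c) and in the 3 spleen sets they overlap.

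The first comparison asked how x arrays differed from c arrays in blood, averaged over both letters. In LPS blood, 7 of the 12 probe sets were higher in x and 0 were lower, where 13.4% of all probe sets tested were higher and 13% lower. In burn blood 0 were higher and 2 lower (7.71% and 10.5% of all), and in trauma-hemorrhage blood 0 were higher and 5 lower (20.5% and 31.3% of all). The median difference of the 12 was 0.17 in LPS blood, -0.07 in burn blood and -0.17 in trauma-hemorrhage blood, beside 0, -0.01 and -0.05 over all probe sets. The 5 of 12 that fell in trauma-hemorrhage blood stand beside 31.3% of all probe sets. Scaling by the array median ended 4 of these calls and turned the sign of 2, as given with their values.

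**Figure D1:**
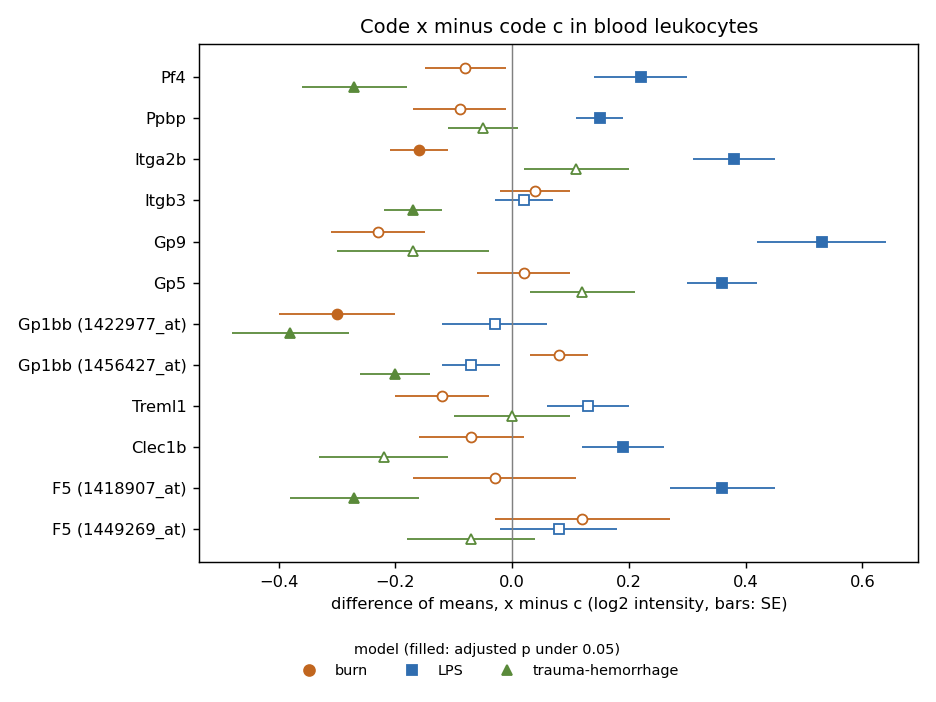
Difference of means, x minus c, in log2 intensity (horizontal axis, bars are SE) for the 12 probe sets (vertical axis) in blood of the burn, LPS and trauma-hemorrhage models. Filled symbols passed an adjusted p of 0.05: 7 in LPS blood, all above 0, and 2 in burn and 5 in trauma-hemorrhage blood, all below 0.

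Among the granule chemokines, Pf4 (platelet factor 4) lay between 11.88 and 12.46 (median 12.19) in the 10 x arrays of LPS blood and between 11.53 and 12.22 (median 11.98) in the 12 c arrays. The groups overlap, and 9 of the 10 x arrays were above the c mean. Pf4 rose by 0.22 ± 0.08 (1.17-fold, limma, adjusted p = 0.0314). Ppbp, which encodes the precursor of a chemokine that attracts neutrophils, was 12.59 to 12.81 (median 12.71) in x and 12.38 to 12.68 (median 12.56) in c arrays. All 10 x arrays were above the c mean, and Ppbp rose by 0.15 ± 0.04 (1.11-fold, adjusted p = 0.00677). In burn blood neither passed: Pf4 differed by -0.08 ± 0.07 (adjusted p = 0.501) and Ppbp by -0.09 ± 0.08 (adjusted p = 0.5). In trauma-hemorrhage blood Pf4 was 11.54 to 12.27 (median 12.02) in x and 11.82 to 12.61 (median 12.28) in c arrays, with 1 of 11 x arrays above the c mean. The difference was -0.27 ± 0.09 (0.832-fold, adjusted p = 0.0155), but with scaling by the array median in place of quantiles the difference was -0.01 ± 0.07. Ppbp differed by -0.05 ± 0.06 (adjusted p = 0.54).

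The fibrinogen receptor, through which platelets aggregate, is made of the products of Itga2b and Itgb3. Itga2b lay at 7.87 to 8.47 (median 8.04) in x and 7.40 to 7.91 (median 7.77) in c arrays of LPS blood, with all 10 x arrays above the c mean. It rose by 0.38 ± 0.07 (1.30-fold, adjusted p = 5.99e-04), while Itgb3 was 7.31 to 7.74 in x and 7.41 to 7.68 in c arrays, with a median of 7.56 in both (0.02 ± 0.05, 95% interval -0.09 to 0.12). In burn blood Itga2b was 7.24 to 7.49 (median 7.39) in x and 7.42 to 7.70 (median 7.55) in c arrays, and none of the 9 x arrays reached the c mean. It fell by 0.16 ± 0.05 (adjusted p = 0.0206), and Itgb3 differed by 0.04 ± 0.06 (adjusted p = 0.686). In trauma-hemorrhage blood Itgb3 was 7.53 to 7.79 (median 7.68) in x and 7.63 to 8.06 (median 7.83) in c arrays, and none of the 11 x arrays reached the c mean. Itgb3 fell by 0.17 ± 0.05 (adjusted p = 0.0042) and kept a difference of -0.14 ± 0.04 (adjusted p = 0.0119) with scaling by the array median, whereas Itga2b differed by 0.11 ± 0.09 (adjusted p = 0.303).

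Gp9, Gp5 and Gp1bb encode subunits of the glycoprotein complex that binds von Willebrand factor, the first contact of a platelet with a damaged vessel wall. Gp9 was 9.50 to 10.71 (median 10.06) in x and 8.94 to 9.82 (median 9.58) in c arrays of LPS blood, and 9 of 10 x arrays were above the c mean. It rose by 0.53 ± 0.11 (1.45-fold, adjusted p = 6.53e-04), the largest difference of the 12 probe sets in that set. By letter, its x arrays of letter A stood at 10.34, 10.71, 9.98, 10.38 and 9.78, and those of letter E at 9.89, 10.10, 10.02, 10.13 and 9.50. The 6 c arrays of letter A were 9.58 to 9.82 (median 9.64) and the 6 of letter E 8.94 to 9.78 (median 9.48), so that within letter A only 1 x array, at 9.78, lay inside the range of the c arrays. Gp5 was 8.94 to 9.35 (median 9.20) in x and 8.46 to 9.09 (median 8.81) in c arrays, and rose by 0.36 ± 0.06 (1.29-fold, adjusted p = 1.94e-04). Gp1bb did not pass with either probe set. Its probe set 1422977_at was 10.59 to 11.26 (median 10.87) in x and 10.35 to 11.24 (median 10.99) in c arrays (-0.03 ± 0.09, 95% interval -0.21 to 0.16), and 1456427_at differed by -0.07 ± 0.05 (adjusted p = 0.335).

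In burn blood 1 of the 4 probe sets of this complex passed. Gp1bb 1422977_at was 9.50 to 10.24 (median 9.81) in x and 9.84 to 10.42 (median 10.13) in c arrays, with 2 of 9 x arrays above the c mean. It fell by 0.30 ± 0.10 (0.814-fold, adjusted p = 0.0403), a call that scaling by the array median ended (-0.23 ± 0.10, adjusted p = 0.128). Gp9 was 8.66 to 9.22 (median 8.95) against 8.94 to 9.54 (median 9.12), with 1 of 9 x arrays above the c mean (-0.23 ± 0.08, adjusted p = 0.0653). Gp5 (0.02 ± 0.08) and Gp1bb 1456427_at (0.08 ± 0.05, adjusted p = 0.307) did not pass, so the probe sets of Gp1bb disagree in sign here. In trauma-hemorrhage blood they agreed in sign. Gp1bb 1422977_at was 10.25 to 11.12 (median 10.89) in x and 10.72 to 11.67 (median 11.23) in c arrays (-0.38 ± 0.10, adjusted p = 0.00374), and 1456427_at was 8.61 to 8.94 against 8.81 to 9.25 (-0.20 ± 0.06, adjusted p = 0.00568). With scaling by the array median these differences were 0.08 ± 0.09 and -0.02 ± 0.05, and Gp5 passed in the positive direction (0.32 ± 0.08, adjusted p = 0.00159; 0.12 ± 0.09 with quantiles).

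**Figure D2:**
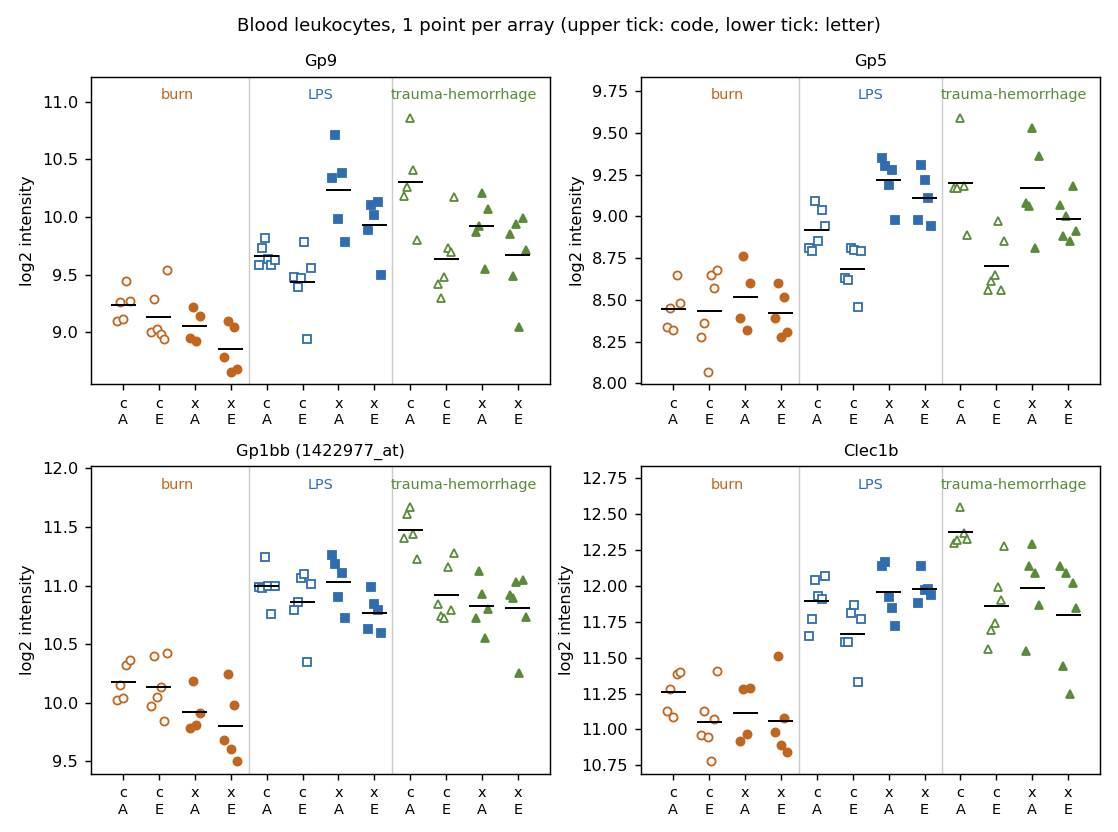
Log2 intensity (vertical axis, each panel on its own scale) of Gp9, Gp5, Gp1bb (1422977_at) and Clec1b on each of the 64 blood arrays, by model, code and letter. Open symbols are code c, filled symbols code x, and lines mark group means. The LPS x arrays of Gp9 and Gp5 lie above most c arrays, and in trauma-hemorrhage the c arrays of letter A are the highest group for Gp1bb and Clec1b.

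Of the receptors outside these complexes, Clec1b encodes the platelet receptor for podoplanin and Treml1 a receptor held in the granule membrane until activation. Clec1b was 11.72 to 12.17 (median 11.96) in x and 11.33 to 12.07 (median 11.79) in c arrays of LPS blood, and 9 of 10 x arrays were above the c mean. It rose by 0.19 ± 0.07 (1.14-fold, adjusted p = 0.0478), close to the threshold. Treml1 differed by 0.13 ± 0.07 (adjusted p = 0.208) in LPS blood, -0.12 ± 0.08 (adjusted p = 0.395) in burn blood and 0.00 ± 0.10 (adjusted p = 0.975) in trauma-hemorrhage blood. In that last set it passed with scaling by the array median (0.33 ± 0.08, adjusted p = 0.0017). Clec1b differed by -0.07 ± 0.09 (adjusted p = 0.689) in burn blood and -0.22 ± 0.11 (adjusted p = 0.108) in trauma-hemorrhage blood.

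F5 encodes clotting factor V, which megakaryocytes pack into platelet granules. Its probe set 1418907_at was 10.53 to 11.27 (median 10.91) in x and 10.20 to 10.80 (median 10.63) in c arrays of LPS blood, with 9 of 10 x arrays above the c mean, and it rose by 0.36 ± 0.09 (1.28-fold, adjusted p = 0.00334). In trauma-hemorrhage blood it was 10.36 to 11.37 (median 10.95) in x and 10.54 to 11.77 (median 11.34) in c arrays (-0.27 ± 0.11, adjusted p = 0.0406), but with scaling by the array median the difference was 0.19 ± 0.11. The other probe set, 1449269_at, did not pass in any blood set: 0.08 ± 0.10 (adjusted p = 0.59) in LPS, 0.12 ± 0.15 (adjusted p = 0.664) in burn and -0.07 ± 0.11 (adjusted p = 0.628) in trauma-hemorrhage blood. In burn blood 1418907_at differed by -0.03 ± 0.14 (adjusted p = 0.916).

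In trauma-hemorrhage blood the 351 probe sets with a mean above 11 had a median x minus c difference of -0.02 with quantiles and 0.25 with scaling by the array median, while the median over all probe sets, those under the filter included, moved from -0.03 to -0.01. In LPS blood the 357 probe sets above that level were at -0.02 and 0.02, and 7 members passed with either scaling. With the beta-actin ratio as a covariate 0 of 12 members passed in LPS and in trauma-hemorrhage blood and 2 in burn blood. Over all probe sets the calls then went from 4181 to 1752 in LPS, from 8202 to 27 in trauma-hemorrhage and from 2884 to 3353 in burn blood. In LPS and trauma-hemorrhage blood the ratio does not overlap between codes. This fit therefore cannot separate ratio from code there, and no conclusion is drawn from the lost calls. Under that covariate the LPS difference of Gp9 was 0.51 ± 0.36, that of Gp5 0.36 ± 0.22 and that of F5 1418907_at 0.78 ± 0.28, with larger SEs than without it, and that of Pf4 was 0.06 ± 0.26. In LPS blood 1 member passed within letter A alone (Gp9, 0.58 ± 0.14) and 5 within letter E alone (Pf4, Itga2b, Gp9, Gp5 and Clec1b), beside 1148 and 2515 calls over all probe sets. In trauma-hemorrhage blood 5 passed within letter A alone, all lower, with Gp1bb 1422977_at at -0.65 ± 0.12 and F5 1418907_at at -0.60 ± 0.16. Within letter E alone 1 passed, Gp5 in the positive direction (0.28 ± 0.10), and F5 1418907_at stood at 0.06 ± 0.14. Over all probe sets 6111 passed within letter A and 3486 within letter E. The numbers in the blood array titles fall into 2 runs in each set, whose meaning no label gives. In LPS blood 7 members passed in run 1 alone and 0 in run 2 alone, beside 4080 and 692 calls over all probe sets.

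Markers of other cells changed with the code in the same blood samples, and their part in the platelet values was not tested. The neutrophil list rose in 11 of 14 tested genes in LPS blood (median 1.27), 6 of 14 in burn blood (0.80) and 7 of 13 in trauma-hemorrhage blood (0.38), with 0 lower in each. Summed over its 14 genes on the array, on the normalized linear scale, it was 16700 to 53700 in x and 10100 to 38900 in c arrays of LPS blood, 29200 to 76600 and 14000 to 38600 in trauma-hemorrhage blood, and 23800 to 36900 and 7760 to 60800 in burn blood. The top of the burn c range is the pair of arrays that stood apart. Without this pair 3 members were lower in burn blood, Itga2b (-0.15 ± 0.05), Gp1bb 1422977_at (-0.34 ± 0.10) and also Gp9 (-0.27 ± 0.08, adjusted p = 0.0219), while the calls over all probe sets went from 2884 to 4270. The erythroid list had 3 of 10 higher and 0 lower in LPS blood, 1 and 1 in burn blood, and 0 and 6 in trauma-hemorrhage blood. Its sum was 15500 to 21100 in x against 13800 to 17400 in c arrays in LPS blood and 9720 to 19800 against 16500 to 21700 in trauma-hemorrhage blood. In burn blood all 8 tested B cell genes fell (median -1.19), with a sum of 3930 to 5400 in x and 5140 to 13200 in c arrays. In LPS blood B cell genes had 1 of 8 higher and 1 lower, and in trauma-hemorrhage blood 0 of 7 and 3. T and NK cell genes (12 tested) had 0 higher and 6 lower in burn, 0 and 1 in LPS, and 3 and 3 in trauma-hemorrhage blood. Monocyte and macrophage genes (12 tested) had 1 and 1, 1 and 1, and 6 and 1 in that order, and those of stroma and endothelium 0 and 0 of 8, 1 and 0 of 7, and 0 and 2 of 6.

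Other platelet genes, taken from lists by role, showed a mixed picture. Of the genes for platelet adhesion and activation receptors, 1 rose and 3 fell of 13 tested in LPS blood, 1 and 0 of 12 in burn blood, and 2 and 2 of 13 in trauma-hemorrhage blood. P2ry12, the receptor for ADP, rose in LPS blood (0.47 ± 0.10, adjusted p = 9.52e-04) and fell in trauma-hemorrhage blood (-0.42 ± 0.13, adjusted p = 0.00873). Cd36, a scavenger receptor also made by monocytes, rose in burn blood (0.33 ± 0.09) and fell in LPS (-0.38 ± 0.11) and trauma-hemorrhage blood (-0.91 ± 0.14). Granule and secreted proteins had 3 higher and 0 lower of 11 in LPS blood, 2 and 1 in burn blood and 3 and 1 in trauma-hemorrhage blood. Thbs1 (thrombospondin) rose by 1.05 ± 0.19 in burn blood and 0.75 ± 0.21 in trauma-hemorrhage blood. Among cytoskeleton, signaling and eicosanoid genes, 5 rose and 1 fell of 15 in LPS blood, with Alox12, the platelet-type lipoxygenase, at 0.69 ± 0.08 (adjusted p = 3.97e-06) and Myl9, a myosin light chain, at 0.56 ± 0.10. Burn blood had 1 and 1 of 15, with Myl9 lower (-0.47 ± 0.08), and trauma-hemorrhage blood 1 and 4 of 14. Genes of megakaryocyte transcription factors had 1 higher and 2 lower of 11 in LPS blood, 0 and 2 in burn blood and 0 and 6 in trauma-hemorrhage blood. Fli1, an ETS factor, fell in LPS (-0.31 ± 0.10) and burn blood (-0.32 ± 0.09), and Tal1 rose in LPS blood (0.36 ± 0.06). The medians of these 4 lists lay between -0.24 and 0.05. White blood cells express many of these genes as well.

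The differences between models were tested directly as contrasts of x minus c. LPS minus burn was positive and passed for 5 of 12 members, where 23.1% of all probe sets passed in either direction. They were Gp9 (0.76), Itga2b (0.54), Gp5 (0.34), Pf4 (0.31) and Ppbp (0.24). Trauma-hemorrhage minus LPS passed for 7 of 12, against 46.3% of all, each negative: Gp9 (-0.70), F5 1418907_at (-0.63), Pf4 (-0.49), Clec1b (-0.41), Gp1bb 1422977_at (-0.35), Ppbp (-0.20) and Itgb3 (-0.19). With scaling by the array median 3 of 12 passed, and Gp1bb 1422977_at stood at 0.08. Trauma-hemorrhage minus burn passed for 3 of 12 against 42.3% of all, with Itga2b at 0.27, Itgb3 at -0.22 and Gp1bb 1456427_at at -0.28. These contrasts share arrays with one another, since each model enters a pair of them.

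The second comparison was E against A in blood, averaged over both codes, which the labels read as the injury or infusion against sham. That reading rests on the labels alone and was not tested. Over all probe sets 0, 0 and 3 passed for E minus A in burn, LPS and trauma-hemorrhage blood, beside 2884, 4181 and 8202 for x minus c. Of the neutrophil genes 0 passed for E minus A in each set, beside 6, 11 and 7 higher for x minus c. No member passed in any set by limma: 0 of 12 in burn blood (0% of all probe sets), 0 in LPS blood (0%) and 0 in trauma-hemorrhage blood (0.0189%). At an unadjusted p under 0.05 there were 0, 4 and 10 of 12 members, beside 5.57%, 5.23% and 10.5% of all probe sets. The differences were mostly below 0, in 12, 11 and 11 of 12 members, with medians of -0.05, -0.11 and -0.28 beside 0, -0.01 and 0 over all probe sets. In burn blood this did not hold within code c, where 7 members were below 0 and 5 above (median -0.01). Within its code x 11 were below 0 and 0 above (median -0.08). The 12 are not separate observations, since they varied together within groups (Pearson r above 0.5 in 25 of 66 pairs in blood). In trauma-hemorrhage blood Gp9 was 9.05 to 10.17 (median 9.70) in the 12 E and 9.55 to 10.86 (median 10.13) in the 10 A arrays, and 1 of 12 E arrays was above the A mean (-0.46 ± 0.13, adjusted p = 0.148). Gp5 was 8.56 to 9.18 (median 8.86) against 8.81 to 9.59 (median 9.17), with no E array above the A mean (-0.34 ± 0.09, adjusted p = 0.109). Itga2b was 7.48 to 8.13 (median 7.91) against 7.88 to 8.56 (median 8.11), and no E array reached the A mean (-0.32 ± 0.09, adjusted p = 0.135). Clec1b differed by -0.35 ± 0.11, F5 1449269_at by -0.34 ± 0.11 and Pf4 by -0.27 ± 0.09. The exception was Gp1bb 1456427_at, at 0.12 ± 0.06 (adjusted p = 0.443), against -0.28 ± 0.10 for the gene's other probe set.

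**Figure D3:**
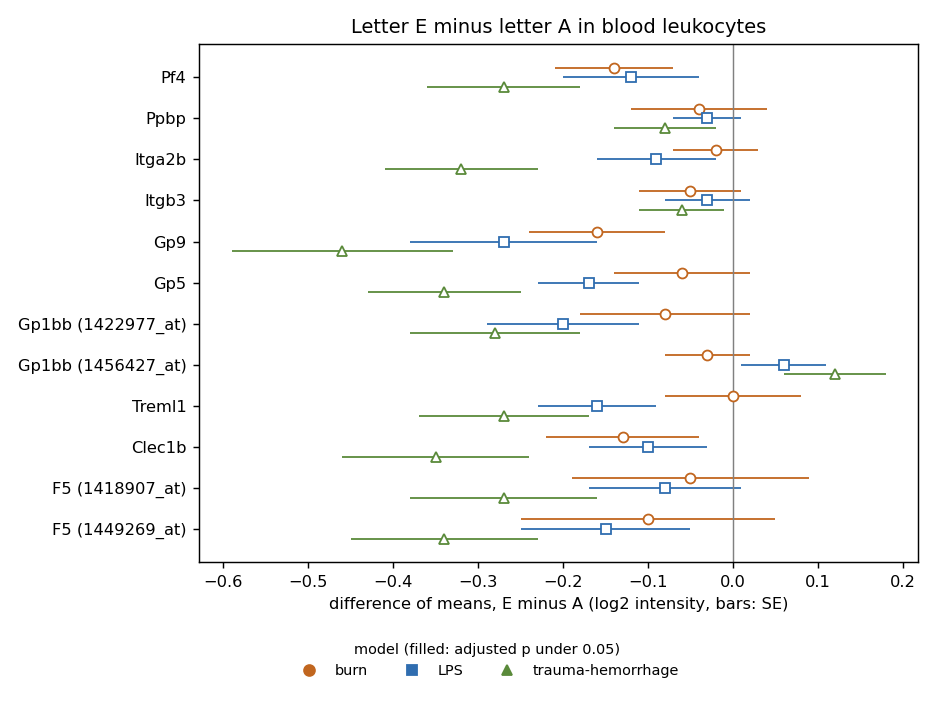
Difference of means, E minus A, in log2 intensity (horizontal axis, bars are SE) for the 12 probe sets (vertical axis) in blood of the burn, LPS and trauma-hemorrhage models. All symbols are open, since no difference passed an adjusted p of 0.05; the trauma-hemorrhage values lie below 0 for 11 of the 12.

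In trauma-hemorrhage blood the letter differences were larger in c than in x arrays, without a difference between codes that passed. Within code c the 12 members had a median of -0.49 (-0.67 to 0.15), and within code x one of -0.10 (-0.25 to 0.09). Clec1b in the c arrays of letter A stood at 12.30, 12.32, 12.55, 12.37 and 12.33, above all 6 c arrays of letter E, which were 11.56 to 12.28 (median 11.82). The x arrays of letter A were at 11.55, 12.14, 12.29, 12.09 and 11.87, all below every c array of letter A. Gp1bb 1422977_at stood highest in the same group, with 11.41, 11.61, 11.67, 11.44 and 11.23 in c arrays of letter A, 10.72 to 11.28, slightly overlapping, in those of letter E and 10.72, 11.12, 10.93, 10.55 and 10.80 in the x arrays of letter A. Within code c the differences were -0.51 ± 0.11 for Clec1b (adjusted p = 0.105), -0.55 ± 0.12 for Gp1bb 1422977_at (adjusted p = 0.103) and -0.60 ± 0.14 for F5 1418907_at (adjusted p = 0.106), and none passed. The test of code by letter, whether E minus A differs between codes, passed for 0 of 12 members in burn (0.0126% of all), LPS (0%) and trauma-hemorrhage blood (0%). In the last of these the members had a median of 0.32 beside 0.02 over all probe sets, and 3 of 12 had an unadjusted p under 0.05, where 7.72% of all did. The beta-actin ratio was 1.94 to 2.28 in c arrays of letter A, 1.79 to 2.07 in c arrays of letter E and 1.39 to 1.65 in x arrays of letter A, and its part in these values was not tested.

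In spleen, x was compared with c among E arrays alone. F5 passed in 2 of the 3 models with 1 of its probe sets, and the member counts lay near the shares over all probe sets. Of 10 tested members in burn spleen 1 was higher (9.93% of all) and 0 lower (8.03%), in LPS spleen 0 of 11 were higher (2.59%) or lower (0.859%), and in trauma-hemorrhage spleen 1 of 10 was higher (10.9%) and 1 lower (16.5%). Itgb3 and Gp1bb 1422977_at in burn and trauma-hemorrhage spleen, and Gp1bb 1456427_at in LPS spleen, lay under the filter on low values and were not tested. The median difference of the members was -0.06, -0.04 and 0.10 in burn, LPS and trauma-hemorrhage spleen, beside -0.01, -0.02 and -0.01 over all probe sets.

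F5 1418907_at in burn spleen stood at 5.91, 5.84, 5.83, 5.99 and 6.11 in the c arrays and at 6.14 to 6.75 (median 6.58) in the 6 x arrays. On the normalized scale the groups do not overlap, and F5 rose by 0.60 ± 0.11 (1.51-fold, adjusted p = 0.00105). Its level was low, with deposited intensities of 30.1 to 41.2 in c and 41 to 75.7 in x arrays. The medians of those arrays were 78.6 to 83.5 in c and 76.2 to 82.2 in x. In trauma-hemorrhage spleen it was 6.19 to 6.66 (median 6.30) in the 6 c arrays and 7.25, 6.61, 7.10, 6.73 and 7.15 in the x arrays. All but 1 of those x arrays lay above every c array, and F5 rose by 0.62 ± 0.12 (1.53-fold, adjusted p = 0.00122). In LPS spleen it was 6.81 to 7.78 (median 7.46) in c and 7.50 to 8.19 (median 7.72) in x arrays, and all 6 x arrays were above the c mean, without passing (0.36 ± 0.15, 95% interval 0.04 to 0.68, adjusted p = 0.354). The other F5 probe set, 1449269_at, differed by 0.05 ± 0.12 (adjusted p = 0.82) in burn, 0.00 ± 0.08 (adjusted p = 1) in LPS and 0.27 ± 0.10 (adjusted p = 0.0705) in trauma-hemorrhage spleen, so the rise rests on 1 of the 2 probe sets. With 1 probe set per gene, the one with the higher mean, burn spleen was represented by 1449269_at and no member passed.

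Clec1b was the member that fell in spleen. In trauma-hemorrhage it was 7.04 to 7.66 (median 7.44) in the 6 c arrays and 6.96, 6.46, 7.13, 7.23 and 6.85 in the x arrays. The groups overlap, but no x array reached the c mean, and Clec1b fell by 0.47 ± 0.13 (0.721-fold, adjusted p = 0.0144). It differed by -0.14 ± 0.10 (adjusted p = 0.399) in burn and -0.10 ± 0.11 (adjusted p = 0.919) in LPS spleen. The granule chemokines were variable among spleen arrays. Pf4 ranged from 7.46 to 8.29 in c and 7.50 to 8.23 in x arrays of burn spleen (-0.02 ± 0.16), from 9.11 to 9.50 and 8.75 to 9.54 in LPS spleen (-0.20 ± 0.11, adjusted p = 0.59) and from 7.75 to 8.57 and 8.0 to 8.59 in trauma-hemorrhage spleen (0.12 ± 0.14). Ppbp differed by -0.10 ± 0.19, -0.13 ± 0.15 and 0.12 ± 0.14, in that order. The remaining tested members, Itga2b, Gp9, Gp5, Treml1, Gp1bb 1456427_at in burn and trauma-hemorrhage, and Itgb3 and Gp1bb 1422977_at in LPS spleen, had differences between -0.16 and 0.18 and none passed.

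**Figure D4:**
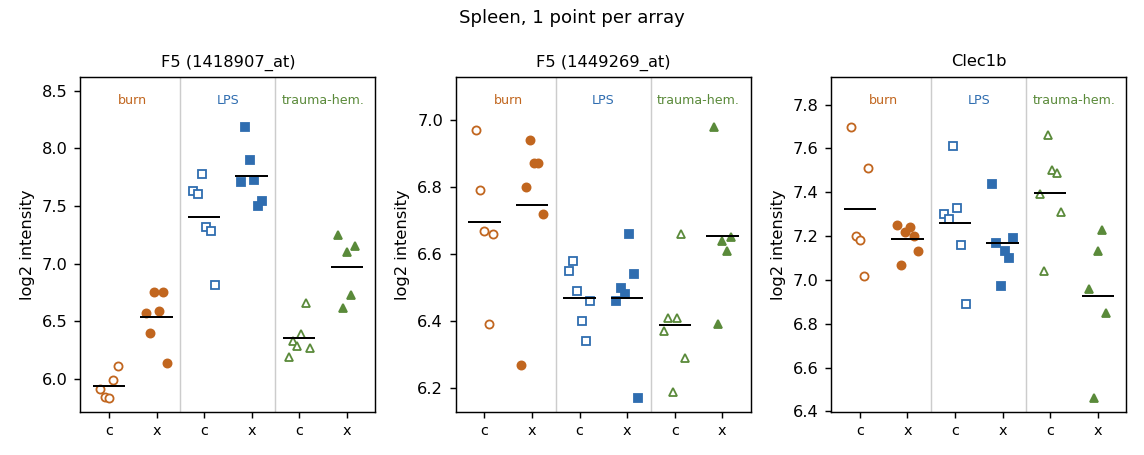
Log2 intensity (vertical axis, each panel on its own scale) of both F5 probe sets and of Clec1b on each of the 34 spleen arrays, by model and code. Open symbols are code c, filled symbols code x, and lines mark group means. The x arrays of F5 1418907_at lie above all c arrays in burn spleen, and the x arrays of Clec1b lie low in trauma-hemorrhage spleen.

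Other cells also changed with the code in spleen, and their part in the values of F5 and Clec1b was not tested. Neutrophil genes had 0 higher and 2 lower of 13 in burn, 8 and 0 of 14 in LPS and 6 and 0 of 14 in trauma-hemorrhage spleen. Monocyte and macrophage genes had 1 and 7 of 12, 2 and 1 of 12, and 4 and 5 of 13, and those of stroma and endothelium 0 and 3 of 8, 0 and 0 of 6, and 2 and 0 of 8. Summed over the 14 neutrophil genes on the array, the normalized linear level was 14300 to 21600 in x and 7570 to 14900 in c arrays of trauma-hemorrhage spleen, against 10200 to 17800 and 9820 to 19300 in burn spleen. For the 13 monocyte and macrophage genes it was 7060 to 10800 in x and 7370 to 9120 in c arrays of trauma-hemorrhage spleen, and 7310 to 8950 and 8050 to 12700 in burn spleen. No gene of these lists on the array lay at the lowest deposited value on all arrays. B cell genes had 0 and 8 of 9, 0 and 2 of 8, and 0 and 7 of 9, T and NK cell genes 3 and 2, 1 and 1, and 1 and 8 of 12, and erythroid genes 0 and 5, 0 and 0, and 1 and 0 of 9. Of the platelet lists, receptors had 0 higher and 1 lower of 10 in burn, 0 and 0 in LPS and 0 and 2 in trauma-hemorrhage spleen, where Cd36 fell by 0.95 ± 0.17 and Tbxa2r, the thromboxane receptor, by 0.75 ± 0.09. Granule and secreted proteins had 2 and 0, 1 and 1, and 3 and 1 of 11. Thbs1 rose by 0.89 ± 0.11 in burn and 1.62 ± 0.17 in trauma-hemorrhage spleen (adjusted p = 3.75e-06). Transcription factors had 0 and 4 of 10, 1 and 0 of 11, and 1 and 3 of 9, with Gata1 higher in trauma-hemorrhage (0.26 ± 0.08). Cytoskeleton, signaling and eicosanoid genes had 1 and 0 of 12, 1 and 1 of 14, and 1 and 5 of 12, and Plek (pleckstrin, also made by leukocytes) rose by 0.99 ± 0.12 in LPS and 1.09 ± 0.08 in trauma-hemorrhage spleen.

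The tests of x minus c between models in spleen passed for 0 members each, with 23.5% of all probe sets passing for trauma-hemorrhage minus burn, 10.7% for trauma-hemorrhage minus LPS and 9.2% for LPS minus burn. At an unadjusted p under 0.05 limma gave 0, 1 and 0 members. Between blood and spleen, over E arrays, LPS passed for 3 of 12 members (7.03% of all), each more positive in blood: Pf4 (0.55), Gp5 (0.53) and Itga2b (0.45). Trauma-hemorrhage passed for 2 of 12 (24.1% of all), each with a lower x minus c difference in blood than in spleen: F5 1418907_at (-0.55) and Gp1bb 1456427_at (-0.41). F5 1418907_at did not fall in these blood E arrays (0.06 ± 0.14), while it rose in spleen. Burn passed for 0 of 12 (3.42% of all), with 2 at an unadjusted p under 0.05. Without the pair of burn c arrays that stood apart, 1 passed, F5 1418907_at (-0.74, adjusted p = 0.0344), and the calls over all probe sets went from 541 to 1763.

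Within groups the members varied together in blood more than in spleen. Over the 64 blood arrays, deviations from the group means gave 66 pairs of probe sets with Pearson r from -0.09 to 0.84 (median 0.41), of which 25 were above 0.5. Over 34 spleen arrays and the 11 probe sets above the filter there, r of 55 pairs ran from -0.57 to 0.74 (median 0.17), with 2 above 0.5. These are descriptions, since the probe sets share the arrays, the sets and their processing. In blood Treml1 (r = 0.87), Gp9 and Clec1b (0.83 each) and Gp1bb 1422977_at (0.81) followed the mean of the other members most, and Gp1bb 1456427_at (0.27) and F5 1418907_at (0.37) least. In spleen Gp1bb 1422977_at (0.69), Ppbp (0.65) and Clec1b (0.60) followed it, and Gp9 ran against it (-0.42). Gp1bb 1422977_at passed the filter over all spleen arrays together, but not in burn or trauma-hemorrhage spleen alone. Its deposited intensities there were 24.1 to 44.9 and 28.5 to 48.3, in that order. The part of such low values in the smaller r of spleen was not tested. The pair of Gp1bb probe sets had an r of 0.25 in blood and 0.08 in spleen, and the pair of F5 probe sets 0.56 and 0.36. The probe sets of 1 gene were thus less alike than Gp9 and Treml1 in blood (0.84).

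**Figure D5:**
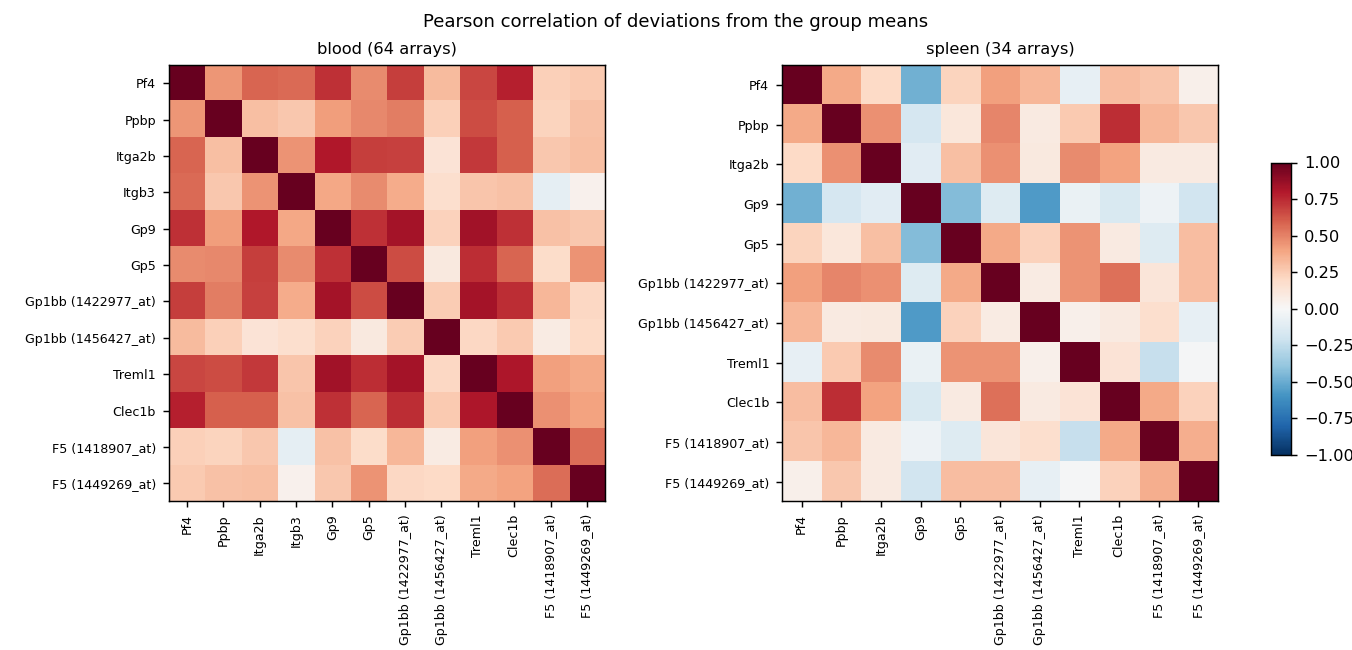
Pearson r (colour) between the members' deviations from their group means, over 64 blood arrays (left) and 34 spleen arrays (right). Blood holds a block of high values among Gp9, Treml1, Gp1bb 1422977_at, Clec1b, Itga2b and Pf4, while Gp1bb 1456427_at and F5 stand outside it, and spleen holds few values above 0.5 with Gp9 negative throughout.

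Arrays at the ends of this shared variation can be named. Averaged over members in units of each member's within-group SD, the highest blood arrays were the trauma-hemorrhage c array of letter E, replicate 6 (1.62) and the c array of letter A, replicate 3 (1.49), and the lowest were the trauma-hemorrhage x array of letter E, replicate 4 (-1.53) and the LPS c array of letter E, replicate 5 (-1.34). In spleen the highest was the burn c array, replicate 1 (1.34) and the lowest the trauma-hemorrhage x array, replicate 2 (-1.06).

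Genes outside the members with the most similar within-group deviations were named by a rule, the highest Pearson r with the members' mean over the arrays of a tissue. In blood, among 9852 genes, they were Alox12 (r = 0.90), Itgb5 (0.89), Mast2 (0.87), Inafm2 (0.86), Itga6 and Rhoj (0.85 each), Cd151 (0.84) and P2ry12 (0.83). Alox12 and P2ry12 also stand on the platelet lists. Within each model alone, r of Alox12 was 0.89 in burn, 0.90 in LPS and 0.90 in trauma-hemorrhage blood. Among the 8 it ran from 0.73 (Itga6) to 0.94 (Itgb5), both in LPS blood. The same arrays chose these genes, so the values within models only describe them. In LPS blood 4 of the 8 were higher in x: Alox12, P2ry12, Itga6 (0.36 ± 0.09, adjusted p = 0.00653) and Itgb5 (0.25 ± 0.07, adjusted p = 0.0124). Mast2 (-0.09 ± 0.08), Inafm2 (-0.05 ± 0.11), Rhoj (0.15 ± 0.09) and Cd151 (0.19 ± 0.10) did not pass there. In spleen, among 9633 genes, the closest were Gng11 (0.75), Nrgn (0.73), Tsc22d1 (0.70), Cd5l and Itm2b (0.67 each). Nrgn and Gng11, both on the platelet lists, differed by -0.45 ± 0.15 (adjusted p = 0.0429) and -0.27 ± 0.11 (adjusted p = 0.101) in trauma-hemorrhage spleen. The r of Nrgn was 0.39 in LPS spleen against 0.87 in burn spleen, and that of Cd5l, a macrophage gene, 0.17 against 0.72.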

How the data were processed

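The authors deposited 1 table of linear intensities for the whole series. The steps from scan to intensity, and any scaling, are not given in the sources used here. Without the 64 control probe sets of the manufacturer 22626 remained, of which 20380 had 1 symbol in the gene table of the platform.

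Values were taken as log2(value + 16) and quantile normalized within a tissue. A filter at the 30th percentile of the mean kept 15838 probe sets for each of 21 comparisons. These were tested in limma (version 3.58.1, under R 4.3.3) by a linear model with 1 term per group and a trended empirical Bayes variance, two-sided, with Benjamini-Hochberg adjustment over all of them at 0.05. Precision is limited by the number of arrays. The steps were tested on simulated data.

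The members, lists and tests were chosen with earlier results of these data known. All probe sets of the members are reported, of each list the counts past the threshold and by name at most the 4 genes with the smallest p, and the 8 (blood) and 5 (spleen) other genes most like the members. Alternatives were the pseudocount, scaling, filter, 1 probe set per gene, single letters, codes or title-number runs, the run as a block, the beta-actin ratio as a covariate and leaving out arrays.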

Additional observations from a re-analysis of the deposited data

Results flagged for a closer look

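Of 216 groups of member values (a probe set in a group of 4 to 6 arrays), 9 (4.17%) held an array whose gap to the nearest other was large for the group's range. Chance flags about 1 in 20 such groups. In blood these were Ppbp in the trauma-hemorrhage x array of letter E, replicate 2 (12.26, others 12.50 to 12.63), and the LPS c array of letter E, replicate 5, for Itga2b (7.40, others 7.65 to 7.78) and Treml1 (9.38, others 9.79 to 10.03). The trauma-hemorrhage c array of letter A, replicate 3, was high for Treml1 (10.58, others 9.91 to 10.09) and Clec1b (12.55, others 12.30 to 12.37). In spleen they were Gp5 in the burn c array, replicate 1 (7.17, others 6.82 to 6.92) and the burn x array, replicate 4 (6.73, others 6.89 to 6.94), F5 1449269_at in the burn x array, replicate 1 (6.27, others 6.72 to 6.94) and Gp1bb 1456427_at in the LPS c array, replicate 3 (5.75, others 5.91 to 5.99).

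The x minus c difference of a member differed between sets in 20 tests. Trauma-hemorrhage minus burn blood gave 0.27 for Itga2b, -0.22 for Itgb3 and -0.28 for Gp1bb 1456427_at. Trauma-hemorrhage minus LPS blood gave -0.49 for Pf4, -0.20 for Ppbp, -0.19 for Itgb3, -0.70 for Gp9, -0.35 for Gp1bb 1422977_at, -0.41 for Clec1b and -0.63 for F5 1418907_at. LPS minus burn blood gave 0.31 for Pf4, 0.24 for Ppbp, 0.54 for Itga2b, 0.76 for Gp9 and 0.34 for Gp5. Blood minus spleen gave 0.55 for Pf4, 0.45 for Itga2b and 0.53 for Gp5 in LPS, and -0.41 for Gp1bb 1456427_at and -0.55 for F5 1418907_at in trauma-hemorrhage.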

How the results depend on the processing

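Over 37 passing member results and 278 refits under other settings, 209 kept their direction and side of the threshold, 64 kept the direction only and 5 changed sign. The sign changes were Gp1bb 1422977_at (0.08) and F5 1418907_at (0.19) in trauma-hemorrhage blood and Gp1bb 1422977_at in trauma-hemorrhage minus LPS blood (0.08) with scaling by the array median, Pf4 in trauma-hemorrhage blood with the beta-actin ratio as a covariate (0.02), and F5 1418907_at there in letter E alone (0.06).

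Counts of passing members moved as follows, and the cause was not tested. Burn blood went from 2 to 1 with median scaling, no filter or the title-number run as a block, and to 0 in letter A, letter E, run 1 or run 2 alone (over all probe sets from 2884 to 2681, 3105, 2855, 2985, 420, 1760 and 76, in that order). LPS blood went from 7 to 0 with the beta-actin covariate or in run 2 alone, and to 1 in letter A alone, where the calls over all probe sets went from 4181 to 1752, 692 and 1148. In run 1 alone its count stayed at 7, beside 4080 calls over all. Trauma-hemorrhage blood went from 5 to 3 with median scaling, 0 with the covariate or in run 1 alone, and 1 in letter E alone (over all probe sets from 8202 to 7865, 27, 1708 and 3486). In run 2 alone 4 passed there, beside 6932 calls over all. Burn spleen went from 1 to 0 with 1 probe set per gene (over all 2845 to 1941, of fewer tested). Trauma-hemorrhage minus LPS blood went from 7 to 3 with median scaling (over all 7332 to 6792). Blood minus spleen went from 0 to 1 in burn with a pseudocount of 1 or without a pair of c arrays, from 3 to 1 in LPS with no filter, and from 2 to 1 in trauma-hemorrhage with 1 probe set per gene. Over all probe sets these calls went from 541 to 565 and 1763 in burn and from 1114 to 1027 in LPS. In trauma-hemorrhage they went from 3815 to 2607, of fewer tested.

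Leaving out 1 array at a time gave 978 of 1096 refits on the same side, 118 past it no longer and 0 of the other sign. Burn blood gave 1 to 3 passing members, beside 2510 to 3636 calls over all probe sets. The count of 1 came without c replicates 2, 4 or 5 of letter A or 2 or 6 of letter E, or without x replicates 1, 3 or 4 of letter A or 1, 3 or 5 of letter E. LPS minus burn blood gave 3 to 8 (8 without burn x letter E replicate 2, 3 without burn c A 4, burn x E 3, LPS c E 5, LPS x A 1 or LPS x E 4). Over all probe sets that contrast then had 3388 to 3985 calls. Blood minus spleen gave 0 to 1 in burn (1 without blood c E 2 or x E 2), 1 to 4 in LPS (1 without blood c E 2 or 5, blood x E 1, 2 or 4, spleen c 2 or spleen x 2, 4 or 5) and 1 to 3 in trauma-hemorrhage (1 without blood c E 6, blood x E 2 or 4, or spleen x 1, 3 or 5). Calls over all probe sets for blood minus spleen were 323 to 972, 846 to 1758 and 3065 to 4323, in that order. No paired analysis was possible because the titles carry no replicate numbers shared between groups.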
